A study of Mus musculus with 45 samples.

Results

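Gpr84 and 9 other receptors that phagocytes use to read lipids, metabolites, purines, bacterial peptides and complement were followed in lung phagocytes after intraperitoneal (ip) lipopolysaccharide (LPS), the endotoxin of gram-negative bacteria. The 10 genes are Gpr84, Hcar2, Adora2a, Adora2b, Ptger2, Ptger4, Fpr1, Fpr2, C5ar1 and Ccrl2, of 23594 gene rows in the deposited table. They were picked by name with their values in these libraries already known, so their levels and changes are given as a description and the calls on them support nothing further. The cells were inflammatory monocytes, called iMo, and the macrophages of the lung interstitium (IM) and of the alveoli (AM). They were sorted from lungs of C57BL/6J mice with no LPS (0h) and at 2, 6 and 20h after ip LPS. Of 45 libraries in the series, the 27 of 0h and ip LPS were used, in 12 groups: 2 libraries for each iMo and each IM group, and 4, 2, 3 and 2 AM libraries at 0, 2, 6 and 20h. Neither the LPS dose nor the age of the mice is given in the sources used here, and whether replicates come from different mice is not stated, so errors and calls measure only the spread between these libraries.

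Most of these receptors have 7 membrane-spanning helices and signal through heterotrimeric G proteins. Gi-coupled receptors lower cyclic AMP and drive migration and killing. Gs-coupled ones raise cyclic AMP, which in macrophages is known to restrain production of tumour necrosis factor. GPR84 senses medium-chain fatty acids through Gi, and its transcript is known to be induced by LPS in macrophages. HCAR2 is the Gi-coupled receptor for nicotinic acid and the ketone body beta-hydroxybutyrate. ADORA2A and ADORA2B are the Gs-coupled adenosine receptors, and PTGER2 and PTGER4 the Gs-coupled receptors for prostaglandin E2. FPR1 and FPR2 detect formylated bacterial peptides, and C5AR1 the complement fragment C5a. CCRL2 binds the chemoattractant chemerin without known G protein signalling and is counted among the atypical chemokine receptors.

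RefSeq promoter windows on GRCm38.p6, the build also called mm10, run from 250 bases before a gene's start to 50 bases after it. The tables held 10 windows for 8 of the 10 genes, with none for Hcar2 or Adora2a. They were searched on both strands for 5 motifs: GGANTTTCC for NF-kB, GAGGAAGT for PU.1, TGANTCA for AP-1, TTGCNNAA for C/EBP and TGACGTNA as a cyclic AMP response element. The Ccrl2, Ptger2 and Gpr84 windows are shown because Ccrl2 and Ptger2 hold the only 2 matches found, and because Gpr84 had the largest change of the 10 genes in each LPS comparison of IM and iMo. Capitals mark the match, and the Gpr84 window has none.
Ccrl2 (chr9:111057469-111057768, minus strand): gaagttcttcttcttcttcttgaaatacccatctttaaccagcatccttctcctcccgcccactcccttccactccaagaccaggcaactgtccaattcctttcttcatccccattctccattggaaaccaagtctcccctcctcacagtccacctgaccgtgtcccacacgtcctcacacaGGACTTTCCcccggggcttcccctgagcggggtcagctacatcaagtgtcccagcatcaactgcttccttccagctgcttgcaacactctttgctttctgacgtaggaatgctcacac
Ptger2 (chr14:44987861-44988160, plus strand): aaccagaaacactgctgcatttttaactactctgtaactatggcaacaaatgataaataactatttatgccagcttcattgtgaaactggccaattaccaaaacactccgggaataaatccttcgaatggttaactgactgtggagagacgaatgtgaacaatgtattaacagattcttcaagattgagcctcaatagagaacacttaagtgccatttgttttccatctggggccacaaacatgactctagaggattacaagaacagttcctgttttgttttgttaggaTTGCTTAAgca
Gpr84 (chr15:103310389-103310688, minus strand): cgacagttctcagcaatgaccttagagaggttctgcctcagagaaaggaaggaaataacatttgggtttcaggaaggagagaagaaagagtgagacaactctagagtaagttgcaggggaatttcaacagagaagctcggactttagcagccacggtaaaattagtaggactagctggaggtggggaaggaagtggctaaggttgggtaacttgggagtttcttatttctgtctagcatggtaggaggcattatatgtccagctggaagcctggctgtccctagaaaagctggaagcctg
The NF-kB letters of Ccrl2 begin at position -68 from the start of the gene, and 412 of 32851 mouse promoter windows (1.25%) hold this motif. The C/EBP letters of Ptger2 begin at position 40, and 3547 windows (10.8%) hold that motif. The PU.1, AP-1 and cyclic AMP letters occur in 3.20%, 7.81% and 2.93% of all windows and were absent from these 10. A match describes letters and is no evidence of binding, and no match says only that the letters are not in the window.

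The values are TPM, relative transcript abundances scaled by gene length and by library, so that levels can be set side by side but read depth is not kept. Column sums ran from 331473 to 551635 TPM, and 4068 to 7298 genes reached 5 TPM. Titles end in a 6-digit code, with or without a letter before it; libraries are named here by letter and code, with N for no letter. The 0h libraries of IM and iMo are A171227 and B171227, and the ip libraries are N160623, A161219 or B161219, so for IM and iMo the effect of LPS and the code cannot be told apart. AM library N160623 is the only 0h library that shares its code with ip libraries. Rn45s, the row of the ribosomal RNA precursor, made up 4.33 to 33.3% of a library's TPM. Its median was 29.6% in the 6 libraries N160623, 11.9% in the 14 named A161219 or B161219, and 6.27% in the other 7, all of 0h; calls after rescaling without it are given below. The sorted cells carried their defining markers only in part. Siglecf, the AM lectin, stood at 43.9 to 228 TPM in AM and at 8.11 TPM or less elsewhere. The 17 alveolar markers summed to 667 to 1206 TPM in iMo, 446 to 2767 TPM in IM and 5415 to 18282 TPM in AM. Marco, a scavenger receptor of that list, was however at 58.5 to 196 TPM in iMo and 53.9 to 145 TPM in IM at 20h, within the 39.2 to 202 TPM of AM. Ly6c2, a monocyte surface protein, stood at 1004 to 4892 TPM in iMo and 452 to 2048 TPM in IM, which overlap, and at 62.2 TPM or less in AM. The 10 classical monocyte markers summed to 3027 to 14348 TPM in iMo. The sums in IM (3800 to 10571 TPM) and AM (2881 to 11578 TPM) overlapped these. At 0h, 2 of the 10 reached a mean of 5 TPM in AM, and all 10 in iMo and IM. In iMo the list summed to 10016 to 14348 TPM at 0h and to 3027 to 3917 TPM at 20h. C1qa, a macrophage complement subunit, stood in IM at 973 to 1077 TPM at 0h, 20.7 to 59.0 TPM at 2h, 18.1 to 33.9 TPM at 6h and 324 to 328 TPM at 20h. In iMo it was at 7.84 TPM or less up to 6h and at 248.7 to 252.3 TPM at 20h. The 14 interstitial markers summed in iMo to 1486 to 1607 TPM at 0h, 662 to 1163 TPM at 2h, 299 to 307 TPM at 6h and 1930 to 2069 TPM at 20h, and in IM at 20h to 2322 to 2500 TPM. In AM they summed to 149 to 403 TPM except in library A161219 of 20h, which held 3928 TPM, with Apoe at 2933 TPM and C1qa at 149 TPM, against 13.3 and 1.60 TPM in the other AM library of 20h. The part of these markers in the values of iMo and AM at 20h was not tested. All IM libraries also held neutrophil transcripts: the 14 listed markers summed to 17315 to 56986 TPM after LPS and to 11246 to 22594 TPM at 0h. The sums in iMo were 167 to 258 TPM at 0h, 347 to 683 TPM at 2h, 1833 to 3136 TPM at 6h and 2963 to 2977 TPM at 20h, and those in AM 25.1 to 444 TPM over all times. The endothelial list summed in IM to 8.44 to 41.6 TPM after LPS and to 538 to 718 TPM at 0h. Neutrophils also express receptors of this set, among them Fpr1, Fpr2, C5ar1 and Gpr84. The part of these cells in the values below was not tested for any of the 10 receptors. In libraries made from many cells, fewer cells of a type and less RNA per cell cannot be told apart.

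**Figure D1:**
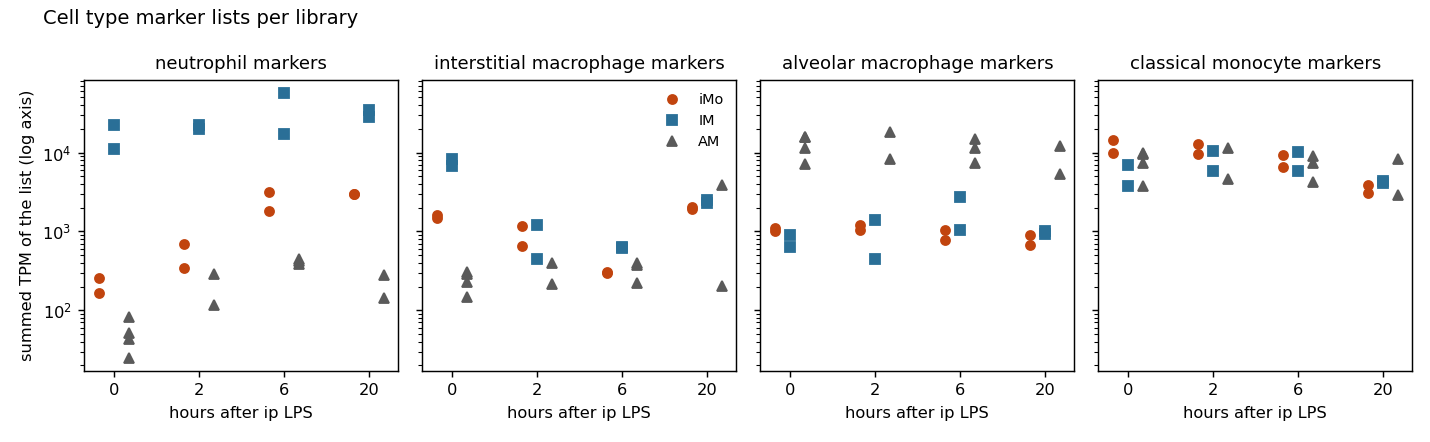
Summed TPM of 4 marker lists (log axis) by library, against hours after ip LPS, for iMo, IM and AM. Neutrophil sums are higher in every IM library than in any iMo or AM library, and the sums of interstitial macrophage markers in IM are lower at 2h and 6h than at 0h. Interstitial markers are also high in iMo and in 1 AM library at 20h.

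After LPS, 7 of the 10 receptor transcripts were higher in IM at 2h and 7 in iMo, while none passed the test in AM at any time. The test was limma on log2(TPM + 1) over the 8937 genes that reached 5 TPM in 2 or more libraries, and a gene was called at a Benjamini-Hochberg adjusted p under 0.05. Fold changes below are log2 differences from 0h of the same cell type, less the median of all tested genes in that comparison, with the standard error (SE) of the fit; adding 1 TPM understates changes of low genes. All 10 receptors passed the filter. Gpr84 reached 5 TPM in 13 libraries, 12 of them IM or iMo after LPS, and Adora2a in 12, all of IM or iMo after LPS, so both passed through the groups in which they are high.

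In iMo, 7 receptors were called higher at 2h, 5 at 6h and 4 at 20h, and 1, Ptger2, was called lower at 20h. Over all genes, 8.41% were called higher and 24% lower at 2h, 5.95% and 23.1% at 6h, and 7.39% and 14.8% at 20h. The median change of the receptors was 2.85 at 2h, 1.66 at 6h and 0.82 at 20h, beside a subtracted all-gene median of -0.42, -0.48 and -0.31. In IM, 7, 8 and 5 receptors were called higher at 2, 6 and 20h and none lower. Over all genes, IM had 7.99% called higher and 40.8% lower at 2h, 4.63% and 20.8% at 6h, and 4.05% and 8.39% at 20h. Receptor medians in IM were 3.73, 2.49 and 1.22, beside all-gene medians of -0.79, -0.53 and -0.09. In AM, limma called 0 receptors at each time, with 2 of 10 at an unadjusted p under 0.05 each time; the percentages over all genes were 0.134% higher and 0% lower at 2h, 0.929% and 0.369% at 6h, and 0.0448% and 0.0671% at 20h. AM receptor medians were -0.12, -0.11 and 0.09, beside all-gene medians of -0.03, -0.16 and -0.31. Without AM library A161219 of 20h, limma again called 0 receptors in AM at 20h, with 0 at an unadjusted p under 0.05 and a median of 0.09. The change of Gpr84 was then -0.48, of Fpr2 -0.02 and of Ccrl2 0.19, against 0.16, -0.58 and 0.80 with it. Among the genes called in the 6 comparisons of iMo and IM, 16.4 to 33.3% were higher as deposited, 48.5 to 55.1% after quantile normalization, and 20.2 to 82.1% after rescaling without Rn45s and Lars2. No called receptor changed direction under either scaling.

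**Figure D2:**
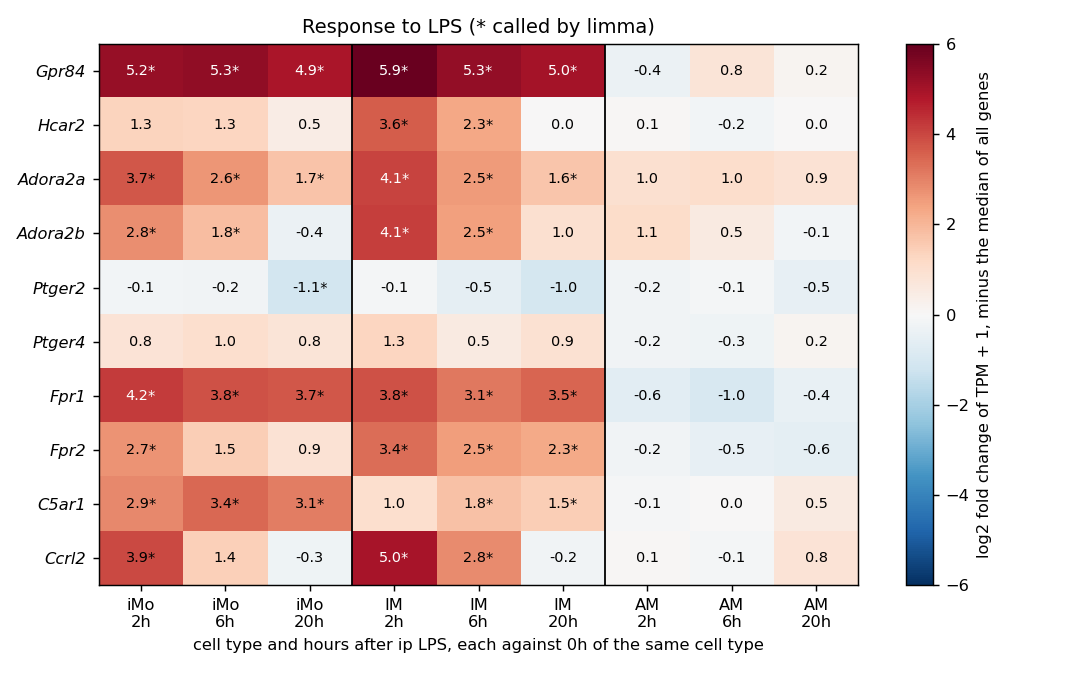
Log2 fold change of TPM + 1 against 0h of the same cell type, less the median of all genes (colour scale), for the 10 receptors (rows) at 2, 6 and 20h in iMo, IM and AM (columns); an asterisk marks a limma call. Gpr84 and Fpr1 are marked at all 3 times in iMo and IM, and no cell is marked in AM.

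Gpr84 was nearly absent before LPS and stayed high for the whole course in iMo and IM. In iMo it held 0.396 and 1.14 TPM at 0h, 33.8 and 66.0 TPM at 2h, 46.9 and 51.4 TPM at 6h, and 45.9 and 36.1 TPM at 20h. In IM it held 0.492 and 1.14 TPM at 0h, 68.1 and 57.3 TPM at 2h, 66.8 and 33.6 TPM at 6h, and 47.7 and 58.5 TPM at 20h. In AM it held 1.65, 2.58, 1.46 and 0.645 TPM at 0h, 0.958 and 0.837 TPM at 2h, 5.21, 2.76 and 1.30 TPM at 6h, and 2.14 and 0.594 TPM at 20h. Every iMo and IM library after LPS was above every AM library and every 0h library. The log2 fold changes were 5.23, 5.34 and 4.90 in iMo and 5.95, 5.29 and 5.01 in IM at 2, 6 and 20h (SE 0.46 each), against -0.36, 0.76 and 0.16 in AM. By mean level, IM at 2h was highest, followed by IM 20h, IM 6h, iMo 2h, iMo 6h and iMo 20h, then by AM 6h and the other AM and 0h groups. Of the 11 neighbouring pairs in this order 9 overlapped. The pairs without overlap were iMo 6h with iMo 20h, and iMo 20h with AM 6h. However, iMo 20h lay within the ranges of IM 6h and iMo 2h, so it was not set apart from all groups above it. Among the N160623 libraries, AM held 0.645 TPM at 0h and 0.837, 1.30 and 0.594 TPM at 2, 6 and 20h, while IM held 57.3 TPM at 2h and 33.6 TPM at 6h. Gpr84 lies at chr15:103308233-103310670 on the minus strand, where the GENCODE annotation also places the antisense gene Gm49482. The labels do not state that counting used strand, so reads from the pair may not have been separated.

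**Figure D3:**
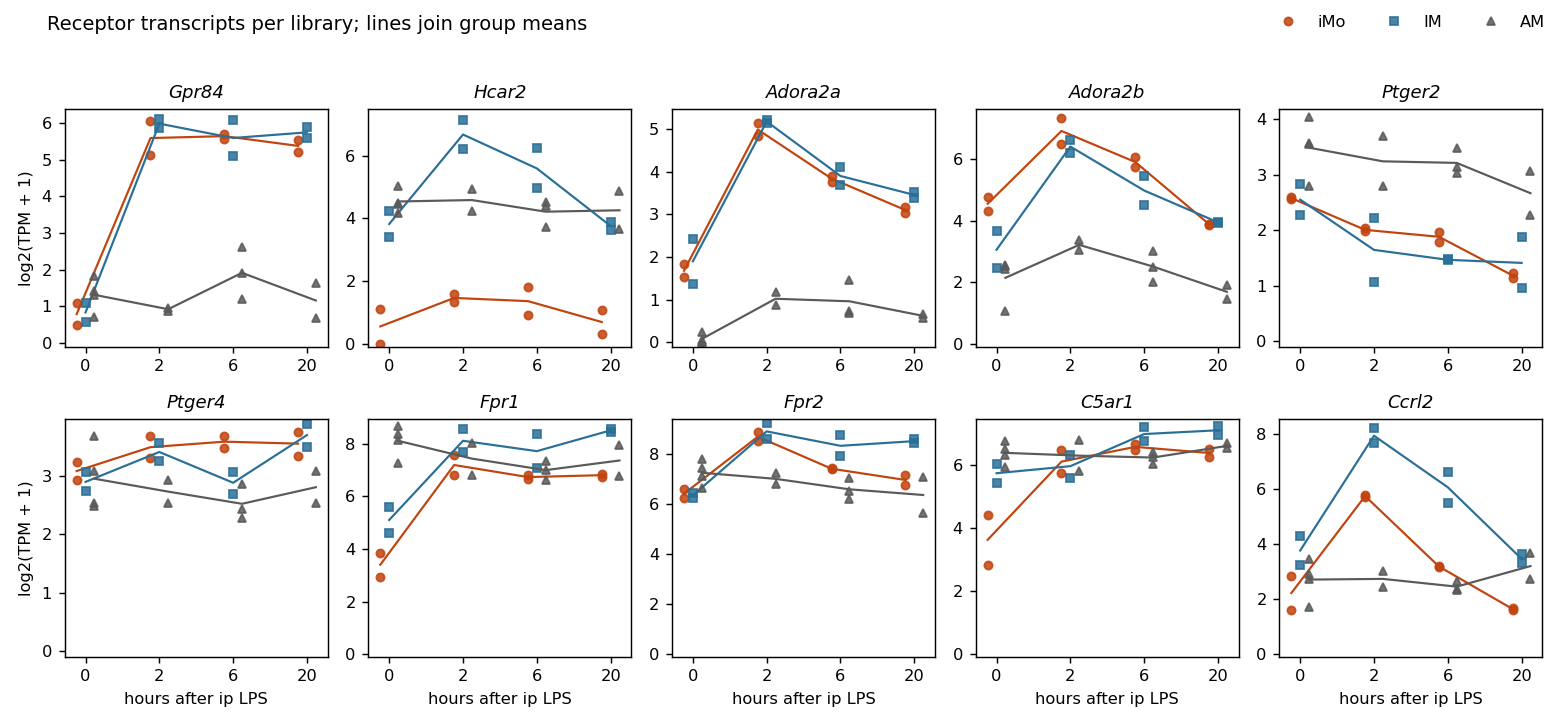
Log2(TPM + 1) of the 10 receptors per library (points) with group means (lines), against 0, 2, 6 and 20h after ip LPS, for iMo, IM and AM. Gpr84 in iMo and IM stays high at 20h, whereas Adora2a, Adora2b and Ccrl2 stand highest at 2h in these cells.

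Hcar2 was found in libraries of IM and AM, and it was close to 0 in those of iMo throughout. It held 0 and 1.14 TPM in iMo at 0h, 1.52 and 1.99 TPM at 2h, 0.868 and 2.50 TPM at 6h, and 0.234 and 1.10 TPM at 20h. The IM libraries held 17.6 and 9.65 TPM at 0h, 139 and 72.9 TPM at 2h, 73.8 and 30.0 TPM at 6h, and 13.6 and 11.4 TPM at 20h. In AM it ran from 11.6 to 29.3 TPM after LPS and from 16.9 to 31.3 TPM at 0h. The IM libraries at 2h and 6h lay above those of 0h, and those of 20h overlapped 0h. Hcar2 rose in IM by 3.65 at 2h and 2.31 at 6h (SE 0.51), and its change at 20h was 0.03. In iMo the changes were 1.33, 1.29 and 0.45 at 2, 6 and 20h, none of them called. The call at 6h was lost without IM 0h library B171227 or IM 6h library A161219, with a change of 1.86 in both cases. In the order of its 12 mean levels, the 4 iMo groups were the lowest and lay below all others. IM 6h did not overlap its next neighbour, AM 2h, but it overlapped AM 0h (30.0 TPM at the lowest against 31.3 TPM at the highest). The IM libraries also held the neutrophil transcripts given above, and the part of neutrophils in these Hcar2 values was not tested.

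The adenosine receptors rose early and together in iMo and IM. Adora2a, the high-affinity Gs receptor, held 1.89 and 2.55 TPM in iMo at 0h, 27.5 and 34.1 TPM at 2h, 13.96 and 12.6 TPM at 6h, and 7.17 and 7.98 TPM at 20h. In IM it held 4.39 and 1.58 TPM at 0h, 34.2 and 36.0 TPM at 2h, 16.1 and 11.95 TPM at 6h, and 10.48 and 9.44 TPM at 20h. In AM it was at 0 TPM in 2 of the 4 libraries of 0h, where it reached at most 0.192 TPM, and at 0.486 to 1.76 TPM after LPS. All AM libraries after LPS thus lay above all AM libraries of 0h. At such low levels, adding 1 TPM shrinks the fold change. In iMo and IM each later time lay below the one before without overlap, and all lay above 0h; the iMo libraries after LPS are all A161219 or B161219 and so share 1 code. Adora2a rose by 3.73, 2.64 and 1.73 in iMo and by 4.07, 2.53 and 1.65 in IM at 2, 6 and 20h (SE 0.33), against changes of 0.97, 1.04 and 0.85 in AM that were not called. The calls at 20h were lost in IM without 0h library B171227 (1.07) and in iMo without 0h library A171227 (1.58). In the order of its 12 levels, 8 of 11 neighbouring pairs did not overlap.

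Adora2b, the low-affinity Gs receptor for adenosine, stood higher than Adora2a before LPS and likewise peaked at 2h in iMo and IM. It held 26.3 and 19.0 TPM in iMo at 0h, 89.7 and 158 TPM at 2h, 52.3 and 66.0 TPM at 6h, and 13.8 and 13.6 TPM at 20h. Levels in IM were 11.6 and 4.46 TPM at 0h, 97.6 and 71.8 TPM at 2h, 42.6 and 21.7 TPM at 6h, and 14.6 and 14.2 TPM at 20h. In AM it held 4.72, 4.33, 4.92 and 1.08 TPM at 0h, 9.35 and 7.27 TPM at 2h, 7.01, 4.65 and 3.05 TPM at 6h, and 2.76 and 1.75 TPM at 20h. In AM, the libraries at 2h lay above those of 0h, and the groups at 6h and 20h overlapped 0h. Adora2b rose by 2.79 and 1.84 in iMo and by 4.15 and 2.46 in IM at 2h and 6h (SE 0.48); at 20h the changes were -0.35 in iMo and 0.98 in IM, neither called. The 6h call was lost in IM without 0h library B171227 (1.82) or 6h library A161219 (2.18), and in iMo without any 1 of the 4 libraries compared (1.58 to 2.09). The 1.10 of AM at 2h (SE 0.42) was not called.

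The receptors for prostaglandin E2 did not follow this course. Ptger2 was highest in AM, whose libraries ran from 3.81 to 11.9 TPM after LPS and stood at 10.7, 10.9, 15.3 and 5.90 TPM at 0h. In iMo it held 4.88 and 5.04 TPM at 0h, 2.94 and 3.09 TPM at 2h, 2.47 and 2.90 TPM at 6h, and 1.21 and 1.33 TPM at 20h. Levels in IM were 0.934 to 3.64 TPM in the 6 libraries after LPS, and 3.84 and 6.07 TPM at 0h. All libraries of iMo and IM after LPS lay below their own 0h libraries, but only iMo at 20h was called, with a change of -1.08 (SE 0.42). That call was lost without any 1 of the 4 libraries compared (-1.12 to -1.04). Ptger4, the other Gs receptor for prostaglandin E2, stayed between 3.86 and 13.85 TPM in all 27 libraries, and it was called in none of the 12 comparisons of 2 groups. Its changes ran from 0.78 to 0.98 in iMo and from 0.52 to 1.31 in IM (SE 0.37), and 10 of its 11 neighbouring levels overlapped. Ptger4 overlaps Ttc33 on the other strand, and Ptger2 the antisense gene Gm17173, with the same limit on strand as for Gpr84.

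Fpr1, the high-affinity formyl peptide receptor, was lower in iMo and IM than in AM before LPS. After LPS, iMo lay within the range of AM, and 4 of the 6 IM libraries lay above all AM libraries of those times. In iMo it held 13.5 and 6.69 TPM at 0h, 112 and 187 TPM at 2h, 111 and 99.4 TPM at 6h, and 115 and 107 TPM at 20h. The IM libraries held 47.9 and 23.1 TPM at 0h, 372 and 204 TPM at 2h, 329 and 133 TPM at 6h, and 349 and 377 TPM at 20h. In AM it held 97.2 to 262 TPM after LPS, and 402, 328, 282 and 154 TPM at 0h. The 0h libraries of iMo and IM lay below all others, and the 10 remaining groups formed 1 chain of overlapping ranges. Fpr1 rose by 4.21, 3.81 and 3.71 in iMo and by 3.80, 3.15 and 3.50 in IM at 2, 6 and 20h (SE 0.55), against -0.64, -0.96 and -0.44 in AM, not called.

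Fpr2, which binds formyl peptides, serum amyloid A and annexin A1, was already abundant at 0h. In iMo it held 95.8 and 75.5 TPM at 0h, 368 and 471 TPM at 2h, 174 and 167 TPM at 6h, and 142 and 109.6 TPM at 20h. In IM it held 75.3 and 87.6 TPM at 0h, 603 and 387 TPM at 2h, 431 and 243 TPM at 6h, and 392 and 347 TPM at 20h. In AM it ran from 50.0 to 150.3 TPM after LPS and from 99.8 to 224 TPM at 0h. Both cell types lay above their 0h libraries at every later time. Fpr2 rose by 3.35, 2.52 and 2.26 in IM (SE 0.45); in iMo it rose by 2.70 at 2h, and the changes of 1.48 at 6h and 0.86 at 20h were not called. Of the 1295 stretches of 50 bases in the Fpr2 transcript, 408 (31.5%) also occur in Fpr1, Fpr3 or Gm5966, so its reads could have been split between copies. The Fpr3 row never exceeded 1.62 TPM.

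C5ar1, the receptor for C5a, was lower in iMo than in IM and AM before LPS and lay among the levels of AM and IM afterwards. In iMo it held 20.1 and 6.09 TPM at 0h, 86.6 and 52.1 TPM at 2h, 87.5 and 99.6 TPM at 6h, and 74.8 and 88.8 TPM at 20h. Levels in IM were 63.9 and 42.1 TPM at 0h, 78.5 and 46.9 TPM at 2h, 145 and 107 TPM at 6h, and 122 and 149 TPM at 20h. In AM it stayed between 54.3 and 108 TPM in all 11 libraries. The iMo libraries at every time after LPS lay above those of 0h, while IM at 2h overlapped 0h. C5ar1 rose by 2.90, 3.43 and 3.07 in iMo (SE 0.45). In IM it rose by 1.78 at 6h and 1.45 at 20h, with limma adjusted p-values of 0.0464 and 0.0495, just inside the threshold. Those 2 calls were lost in 15 and 17 of the 27 fits that left out 1 library, among them every fit without a library of the groups compared (1.44 to 2.08 at 6h and 1.11 to 1.75 at 20h over all 27).

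Ccrl2, the atypical receptor for chemerin, rose at 2h in iMo and IM and was back in the range of 0h by 20h. In iMo it held 2.04 and 6.08 TPM at 0h, 50.4 and 54.0 TPM at 2h, 8.01 and 8.07 TPM at 6h, and 2.16 and 2.04 TPM at 20h. The IM libraries held 8.30 and 18.6 TPM at 0h, 293 and 199 TPM at 2h, 96.6 and 44.0 TPM at 6h, and 8.76 and 11.3 TPM at 20h. In AM it stayed between 2.25 and 11.6 TPM. At 2h both cell types lay above their 0h libraries, and at 20h within their range. Ccrl2 rose by 3.94 at 2h in iMo (SE 0.50), and by 4.96 at 2h and 2.83 at 6h in IM; the iMo change of 1.45 at 6h was not called. Without IM 0h library A171227 the IM change at 6h was 2.30 and no longer called. The Ccrl2 window shown above is the only window of the 10 with the NF-kB letters, and the other Ccrl2 windows searched hold none. A link between these letters and the changes was not tested.

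Before LPS, 5 of the 10 receptors were called in some comparison of the 3 cell types. Set against AM, iMo held more Adora2a (1.45, SE 0.29) and Adora2b (2.26, SE 0.42), and less Hcar2 (-4.13, SE 0.44), Fpr1 (-4.86, SE 0.47) and C5ar1 (-2.91, SE 0.39). IM held more Adora2a (1.81, SE 0.29) and less Fpr1 (-3.01, SE 0.47) than AM. Against IM, iMo held less Hcar2 (-3.41, SE 0.51) and C5ar1 (-2.26, SE 0.45), the last call being lost without IM library A171227 (-1.94) or iMo library B171227 (-1.50). The shares of all genes called were 16.2% higher and 13.4% lower for iMo against AM, 15% and 11% for IM against AM, and 0.739% and 6.32% for iMo against IM. The receptors called for IM against AM, and those called higher for iMo against AM, are near these shares in number. Gpr84, Ptger2, Ptger4, Fpr2 and Ccrl2 were called in none of these 3 comparisons. Their ranges at 0h were 0.396 to 2.58 TPM for Gpr84 and 75.3 to 224 TPM for Fpr2.

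Whether the course after LPS differed between cell types was tested with limma's F test over the 3 times, for iMo and IM each against AM and for iMo against IM. It called Gpr84, Adora2a, Fpr1, Fpr2, C5ar1 and Ccrl2 for iMo against AM, 6 of 10 receptors where 17.3% of all genes were called. For IM against AM it called Gpr84, Hcar2, Adora2a, Adora2b, Fpr1, Fpr2 and Ccrl2, 7 of 10 where 26.5% of all genes were called. For iMo against IM it called 0 of 10, with 2 at an unadjusted p under 0.05, where 3.75% of all genes were called. Without AM library A161219 of 20h the same 6 and 7 receptors were called. At these group sizes the missing call does not show that iMo and IM responded alike.

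A list of 19 genes that make, clear or are the ligands, of which 16 passed the filter, was followed in the same libraries. Ptges, the enzyme that makes prostaglandin E2, held 0.168 to 0.364 TPM in iMo at 0h, 40.9 to 78.3 TPM at 2h, 28.3 to 29.8 TPM at 6h and 1.57 to 3.00 TPM at 20h. In IM it held 0.209 to 0.805 TPM at 0h, 36.6 to 52.9 TPM at 2h, 13.6 to 32.1 TPM at 6h and 2.32 to 2.78 TPM at 20h, and in AM at most 3.98 TPM. In both it stood highest at 2h, as Adora2a and Ccrl2 did. Ptges rose by 5.94 in iMo and 5.72 in IM at 2h (SE 0.42), and Ptgs2, the inducible cyclooxygenase, by 2.48 in IM at 2h. Hpgd, which inactivates prostaglandin E2, went the other way: it held 0.355 to 2.47 TPM in iMo at 6h and 44.1 to 48.8 TPM at 0h. In IM, Hpgd held 133 to 166 TPM at 0h, 1.88 to 13.3 TPM at 6h and 2.31 to 5.83 TPM at 20h. Hpgd fell in both, with changes of -3.97 at 6h in iMo and -4.01 at 6h and -4.88 at 20h in IM (SE 0.74). In IM the prostaglandin importer Slco2a1 (-2.20) and the chemerin gene Rarres2 (-2.61) fell at 2h, beside the endothelial transcripts that were lower in the same libraries; their part was not tested. In all, 1 gene of the 16 was higher and 4 lower in iMo at 2h, and 2 were higher and 7 lower in IM, which is near the shares of all genes called (8.41% and 24% in iMo, 7.99% and 40.8% in IM).

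**Figure D4:**
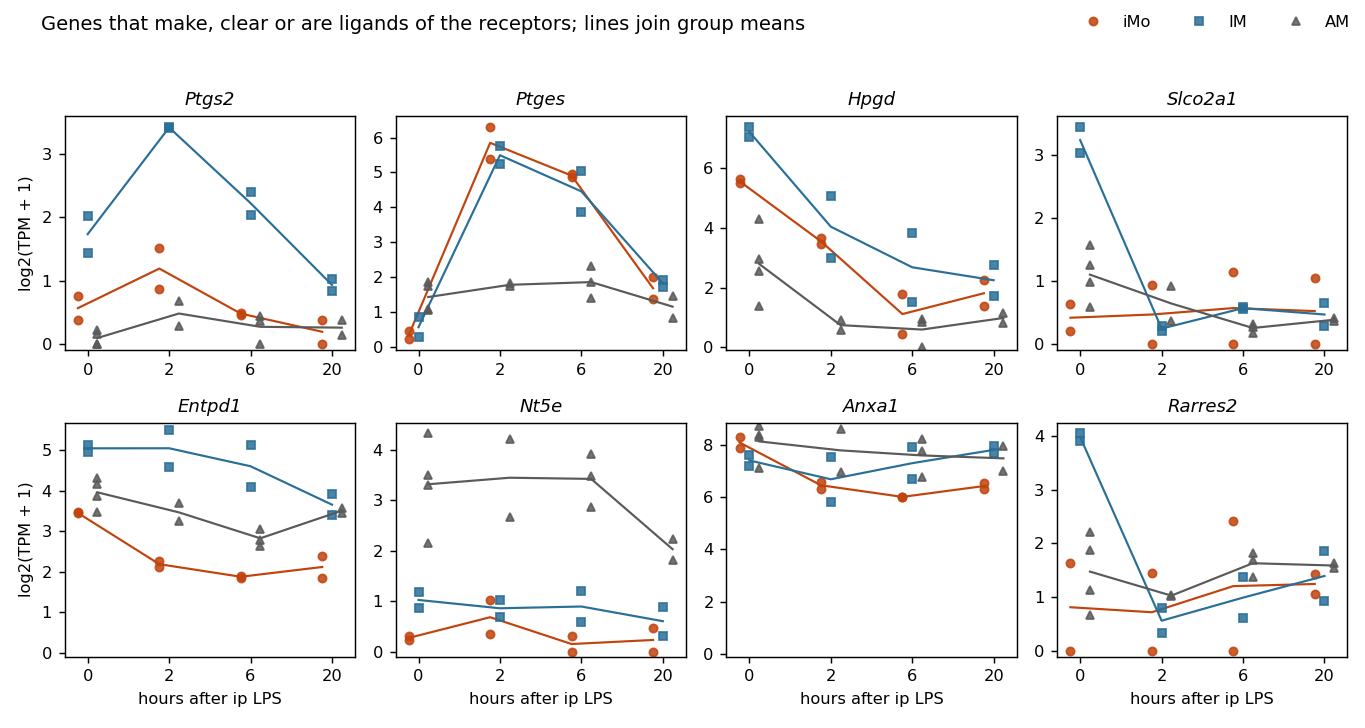
Log2(TPM + 1) of 8 genes that make, clear or are ligands of the receptors, per library (points) with group means (lines), against hours after ip LPS for iMo, IM and AM. Ptges is highest at 2h in iMo and IM and Hpgd is lower at every later time than at 0h.

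Among the genes of adenosine supply, Nt5e, the surface enzyme that forms adenosine from AMP, stood at 0.172 to 0.247 TPM in iMo and 0.821 to 1.28 TPM in IM at 0h, against 3.43 to 19.1 TPM in AM. The log2 differences from AM at 0h were -3.19 in iMo and -2.30 in IM, both called. Entpd1, which degrades ATP to AMP, fell in iMo (-0.84, -1.09 and -1.02 at 2, 6 and 20h) and in AM at 6h (-0.98). Anxa1, a ligand of FPR2, fell in iMo at 2h (-1.21) and 6h (-1.59).

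Of 17 further receptors of the same ligand families, 8 passed the filter. At 2h, 3 of the 8 were higher and 1 lower in iMo, and 2 were higher and 2 lower in IM, beside the same shares of all genes. Adora3, the Gi-coupled adenosine receptor, held 19.6 to 46.8 TPM in iMo at 2h against 0.746 to 2.85 TPM at 0h, and 15.8 to 40.1 TPM in IM at 2h against 0.990 to 1.29 TPM at 0h. It rose by 4.02 in iMo and 4.42 in IM at 2h (SE 0.53), beside Adora2a and Adora2b. C3ar1, the receptor for C3a, rose by 3.31 at 2h and 3.99 at 6h in iMo; in AM at 20h it was at 57.5 TPM in library A161219 and 0.374 TPM in the other. In iMo, Cmklr1, the signalling receptor for chemerin, rose by 3.04, 3.31 and 3.69 at 2, 6 and 20h. Ffar4 and Ffar2, receptors for long-chain and short-chain fatty acids, were lower at 0h in iMo than in AM (-5.08 and -2.78), and in IM than in AM (-3.99 and -1.94). Ptger1, another prostaglandin E2 receptor, fell at 2h in iMo (-0.71) and IM (-0.99).

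Of the 25 tested leukocyte receptors of other ligands, 2 were higher and 5 lower in iMo at 2h, and 2 higher and 8 lower in IM, near or below the shares of all genes called. P2ry13, an ADP receptor, rose by 1.90 in iMo and 2.41 in IM at 2h. Ltb4r1, the leukotriene B4 receptor, rose at 6h by 2.68 in iMo, 2.11 in IM and 2.02 in AM. Gpr183, a receptor for oxysterols, fell at 20h in iMo (-3.47) and IM (-3.16). S1pr1, a sphingosine 1-phosphate receptor, fell in IM at 2h (-2.66); endothelial cells also express it, and their summed markers were lower there.

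Among genes that act behind the receptors, those that end signalling were mostly lower at 2h. Of 12 tested genes for receptor desensitisation, 7 were lower in iMo and 8 in IM at 2h, and none was higher. Rgs2, a brake on Gq signalling, held 4.84 to 22.6 TPM in iMo at 2h against 202 to 236 TPM at 0h, and 4.07 to 6.75 TPM in IM at 2h against 147 to 152 TPM at 0h. It fell in iMo (-3.80) and IM (-3.79, SE 0.53 each). Rgs10, another regulator of G protein signalling, fell in iMo (-3.05) and IM (-2.90), and so did Grk6, a receptor kinase (-2.34 in iMo and -2.18 in IM). The shares of all genes called lower at 2h, given above, were 24% in iMo and 40.8% in IM. Of 26 G proteins and cyclic AMP enzymes, 2 were higher and 10 lower in iMo at 2h, and 1 was higher and 15 lower in IM. Pde4b, the phosphodiesterase that degrades cyclic AMP and is known to be induced by LPS, rose by 2.28 in iMo and 2.28 in IM. The adenylyl cyclase Adcy3 held 0.188 to 0.261 TPM in iMo and 2.10 to 2.37 TPM in IM at 0h, against 29.5 to 42.7 TPM in AM (log2 differences of -5.12 and -3.58). Of 12 cyclic AMP response genes, 2 were higher and 1 lower in iMo at 2h and 4 higher and 1 lower in IM. The shares of all genes called higher at 2h were 8.41% in iMo and 7.99% in IM. Il10, an anti-inflammatory cytokine, was at 8.51 to 9.69 TPM in iMo at 2h and at 0 to 0.680 TPM at 0h, and it held 5.21 to 30.2 TPM in IM at 2h and was listed at 0 there at 0h. The orphan nuclear receptor Nr4a1 rose by 3.35 in IM at 2h.

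Genes whose 12 group means of log2(TPM + 1) were most like those of each receptor were sought among 6337 tested genes, as a description over groups that share libraries and codes. For Gpr84 these were Ehd1 (Pearson r 0.977), Cfb (0.969) and Sod2 (0.960). For Hcar2 they were Ccl22 (0.910), Rab11fip1 (0.906) and Bcl2l1 (0.880). For Adora2a they were Marcksl1 (0.989), Dusp2 (0.989) and Plagl2 (0.986), and for Adora2b Parp12 (0.981), Mlkl (0.976) and Rhou (0.971). Ptger2 was closest to Ak8 (0.980), Macrod1 (0.977) and Cox6b2 (0.969), and Ptger4 to Tfe3 (0.910), Hnrnpa2b1 (0.886) and Khdrbs1 (0.877). Fpr1 was closest to Zswim8 (0.911), Acp5 (0.906) and Bcl2a1c (0.849), Fpr2 to Dusp16 (0.941), Cd80 (0.939) and Batf (0.933). C5ar1 was closest to Acp5 (0.916), Plxna1 (0.893) and Srebf2 (0.820), and Ccrl2 to Schip1 (0.955), Irak2 (0.954) and Pim1 (0.944). Among the receptors themselves, Adora2a and Adora2b were the most alike (0.919), followed by Gpr84 and Adora2a (0.898) and by Fpr1 and C5ar1 (0.864). Gpr84 and Ptger2 ran opposite to each other (-0.864).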

How the data were processed

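Per the labels' protocols, the authors made libraries from poly(A) RNA of sorted cells by a method like Smart-seq2. The authors deposited 1 table of TPM per gene; STAR, HOMER and mm10 are named in the submitters' processing notes, and no version or annotation is given in the sources used here. The 18 intranasal columns were not used because their row names do not match the values: the correlation of log2(TPM + 1) with other libraries was 0.01 to 0.025, against 0.757 to 0.989 among libraries of 0h and ip. The series text gives 22h where the labels give 20h. No 2 columns were identical. TPM keeps no depth, so precision was judged from replicates, which correlated at 0.936 to 0.981 within groups. TPM was analysed as log2(TPM + 1) for genes that reached 5 TPM in 2 or more libraries, in limma 3.58.1 (R 4.3.3) with 1 coefficient for each of 12 groups, empirical Bayes moderation with a trend and Benjamini-Hochberg adjustment within each comparison; the procedure was tested on simulated data. The 3 times of a cell type were each set against the same 0h libraries. The median log2 change of all genes was subtracted from printed fold changes, while calls refer to values before subtraction. The receptors, the 6 lists of related genes and the 12 marker lists were chosen with earlier results of these data known. From each related list the called genes with the largest changes (up to 4 per direction and comparison) could be named, and for each receptor the 3 genes with the most similar group means. Gene positions and promoters are from RefSeq on GRCm38.p6. Alternatives were another pseudocount (0.1 TPM), no filter, quantile normalization, rescaling without Rn45s and Lars2, title code or title letter and code as covariates, fits of the compared groups alone, and leaving out each library.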

Additional observations from a re-analysis of the deposited data

Results flagged for a closer look

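Within AM at 0h, Adora2b stood at 1.08 TPM in library N160623, below the 4.33 to 4.92 TPM of the other 3 libraries; the gap was 0.847 of the range of the group. This test flags some groups by chance, and the library is the only 0h library of its code.

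The course of 7 receptors after LPS differed between IM and AM by limma's F test over 2, 6 and 20h. The adjusted p was 5.35e-06 for Gpr84, 0.00689 for Hcar2, 0.00447 for Adora2a, 0.0415 for Adora2b, 0.000592 for Fpr1, 0.00158 for Fpr2 and 0.000113 for Ccrl2. The call on Adora2b was lost in 13 of 27 fits that left out 1 library. Between iMo and AM, 6 receptors differed. The adjusted p was 1.02e-05 for Gpr84, 0.00487 for Adora2a, 0.000183 for Fpr1, 0.0229 for Fpr2, 0.00232 for C5ar1 and 0.000696 for Ccrl2. Here the call on Fpr2 was lost in 3 of 27 fits that left out 1 library, and that on C5ar1 without iMo 0h library B171227. The receptors were chosen with these values known, and the p-values describe them only. For IM and iMo the title code changes together with LPS, whereas 1 AM library of 0h shares its code with ip libraries, and the part of the code in these differences cannot be told apart.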

How the results depend on the processing

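Of the 59 calls on single receptors, 13 are F tests, and the other 46 kept their direction under every alternative run. All 59 stayed called after quantile normalization; 2 were lost after rescaling without Rn45s and Lars2, 3 with the compared groups alone, 6 with no filter, 6 with the title code as a covariate and 8 with a pseudocount of 0.1 TPM. Fits with title letter and code together as a replicate block lost 15. In fits with the code, alone or with the letter, libraries of 0h and ip share a code only through AM library N160623 of 0h. For IM and iMo these fits therefore cannot tell LPS and the code apart. Same-labelled libraries of different groups correlated at -0.21 to 0.618 (median 0.084), with 28 of 62 pairs over 0.1. With the same code and another letter, 19 of 55 pairs were over 0.1 (median 0.015). With other codes, 34 of 215 were (median -0.019). By median, same-labelled libraries were thus the most alike. Whether they share mice is not stated, and the main fit did not pair them. With this replicate block, receptors called numbered 5 in IM at 6h, 2 in IM at 20h, 2 in iMo at 6h, 2 in iMo at 20h and 5 for iMo against IM at 0h. With the title code they numbered 3 in IM at 20h, 3 in iMo at 20h, 4 for IM against AM and 5 for iMo against IM at 0h. After quantile normalization they numbered 8 in iMo at 6h, 7 for IM against AM and 5 for iMo against IM at 0h, and 1 in the F test of iMo against IM. After rescaling they numbered 1 in AM at 2h and 1 at 6h, 9 in iMo at 6h, 5 for IM against AM, 8 for iMo against AM and 4 for iMo against IM at 0h, and 1 in the F test of iMo against IM. A pseudocount of 0.1 TPM gave 1 in AM at 2h, 1 in AM at 6h and 4 in the F test of IM against AM. The compared groups alone gave 1 for iMo against IM. The cause was not tested.

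Leaving out 1 library moved the count to 5 to 9 in IM at 6h, 3 to 5 in IM at 20h (3 without 0h B171227), 3 to 5 in iMo at 20h (3 without 0h A171227), 2 to 4 for IM against AM and 2 to 5 for iMo against IM at 0h. The highest of these last 2 counts came without AM 0h library N160623. The count of 5 in IM at 6h came without 0h B171227 or 6h A161219. Rescaling moved the median change of all genes in iMo to 0.13, 0.31 and 0.33 at 2, 6 and 20h, beside -0.42, -0.48 and -0.31. Of genes called at 0h, the share higher was 54.7% for iMo against AM (27.7% rescaled), 57.8% for IM against AM (42.4% rescaled) and 10.46% for iMo against IM (36.5% after quantile normalization). With mostly 2 libraries a group and no read depth, small differences could not be resolved.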
